A study of Danio rerio
Oryzias latipes and Oryzias latipes and Danio rerio with 7 samples.

Results

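The genes described here are 8 regulators of the egg, the blastula and the early gastrula: pou5f3, nanog, zar1, vox, vent, ved, chd and lin28a. They were selected by gene symbol in the deposited gene tables, after their levels in these libraries were known. The zebrafish tables hold 9 records under these symbols, because 2 of 32264 gene IDs are named lin28a, and the medaka tables hold 4 of 20459, namely vox, pou5f3, chd and zar1, which makes 13 of 52723 in all. The symbols vent, ved, nanog and lin28a were not matched in the medaka tables and were not analysed there. RNA was sequenced from 2 libraries of whole medaka embryos (strain Cab, raised in the medium ERM), 2 of whole zebrafish embryos (strain AB, raised in E3 medium) and 3 of whole chimeras (Cab/AB, raised in ERM), in which zebrafish blastomeres had been put into medaka blastulae of the same age. All were kept at 28 °C, and no stage is named beyond embryo. Each library was read against each genome apart, so the transplanted cells are read in the chimeras' zebrafish table and the host in their medaka table.

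Pou5f3, the fish counterpart of mammalian Oct4, and the homeodomain protein Nanog act together with SoxB1 factors to open and switch on the genome of the zebrafish blastula. Zar1 is an RNA-binding protein of the oocyte that acts at the passage from oocyte to embryo. The homeodomain repressors Vox, Vent and Ved hold dorsal genes down on the ventral side of the gastrula, and Chordin, the product of chd, is the secreted Bmp antagonist of the dorsal organizer, which they restrict. Lin28a binds RNA and blocks the maturation of let-7 microRNAs, and it stays on in progenitor cells after the blastula, as pou5f3 does for a time in the neural plate and tail bud. Most of these transcripts are abundant in the egg or the gastrula and scarce in later embryos.

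Values are FPKM, fragments scaled by transcript length and by the fragments mapped to that genome, so levels can be set side by side between genes within a table. Means ± SD are over libraries rescaled by the median ratio (n = 2 libraries of embryos of either species, n = 3 of chimeras). Differences in log2 are on the log2(FPKM + 1) scale, which understates changes of weak genes. Their SE is that of the limma fit, which borrows variance from other genes, so it is not the spread of a gene's own libraries. Because the genes were chosen with their FPKM known, their values are a description and no p-value is given for them. Whether a group's libraries are from different clutches is not stated, so their spread, which the p-values measure, may be technical. In whole embryos, fewer cells of a type and less RNA per cell cannot be told apart.

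On the zebrafish genome the chimeras held 764000 to 941708 fragments and the zebrafish libraries 21866655 and 28574227, read from the width of the deposited limits, and the medaka libraries 77794 and 102064, which is 8.26% to 13.4% of a chimera's total. On the medaka genome the chimeras held 27167734 to 30983952 and the medaka libraries 18330408 and 21491640. None of the 9 zebrafish records was above 0 in the medaka libraries, and none of the 4 medaka records was above 0 in the zebrafish libraries, so no fragment of these genes was assigned to the wrong species there. In the donor comparison (limma, Benjamini-Hochberg adjusted p under 0.05) 10.5% of all tested genes were higher and 32.5% lower. Of 14 tested retina markers 13 were higher and 1 lower, with a summed level of 989 to 1095 FPKM against 181 and 183 in zebrafish embryos. All 8 somite and blood markers tested were lower, 7 of them at 0 in all chimeras, and summed to at most 0.519 FPKM against 2818 and 3493. These 8 passed the filter on low values only through the zebrafish embryos, so their direction was set by the filter. With untested records of valid status included, 11 in all, the sums were 173 to 190 FPKM against 12690 and 16239. Records of valid status at such levels were left untested only where the medaka libraries averaged 1 FPKM or more. Host reads may thus be part of the 173 to 190 FPKM, which was not tested. All 6 yolk and enveloping layer markers tested were lower (10.1 to 13.6 FPKM against 6475 and 6769), and 3 of them passed the filter only through the embryos. In the host 3 of 7 tested somite and blood markers were lower and 2 higher, beside 3.13% lower and 2.62% higher of all tested genes. Their sums stood at 127 to 144 FPKM against 135 and 138. The lower ones were the muscle regulators myod1 (8.17 ± 0.890 to 4.16 ± 0.229 FPKM, limma adjusted p = 0.0056), myog (17.2 ± 2.22 to 10.8 ± 0.451 FPKM, adjusted p = 0.015) and myf5 (36.9 ± 0.564 to 27.0 ± 0.255 FPKM, adjusted p = 0.0057), and the higher ones tnni2a.4 and slc4a1a. Of 8 tested host retina markers, 1 was higher, atoh7, which passed the filter only through the chimeras (0.408 ± 0.0793 to 1.67 ± 0.194 FPKM, adjusted p = 0.0075), and 0 lower. Their sums were 70.9 to 81.9 FPKM against 73.4 and 80.8. At an unadjusted p under 0.05 by limma there were 4, atoh7 and vax2 higher and pax6a and mab21l2 lower. Of 2 tested host yolk and enveloping layer markers 0 were called by limma, with 1 at an unadjusted p under 0.05 and sums of 200 to 236 FPKM against 242 and 258. At that unadjusted level 12.2% of all tested host genes were lower. The part of the donor markers in the donor values below was not tested. Transplantation and the rearing medium cannot be told apart in the donor comparison.

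In the medaka host each of the 4 genes stood below its level in medaka embryos, in all 3 chimeras. The host kept 72.5% of the medaka level for vox, 67.0% for pou5f3, 65.3% for chd and 55.5% for zar1. In the same libraries 3 of 7 tested somite and blood markers were lower, myod1, myog and myf5, at 0.509, 0.625 and 0.733 times their medaka level. The 2 higher ones, a record of tnni2a.4 and slc4a1a, stood at 1.41 and 1.35 times. The part of such markers in the member values was not tested. The ventral repressor gene vox (ENSORLG00000000633, chromosome 15, 1377606 to 1378695, in the coordinates of the deposited medaka tables, as for the genes below) was the most abundant, at 66.2 and 73.2 FPKM in the medaka libraries and 51.0, 52.8 and 52.6 FPKM in the chimeras. The highest chimera was under the lower medaka library, and the confidence limits of the chimeras, which reached 55.1 FPKM at most, did not meet those of the medaka libraries, which began at 63.4 FPKM. The means were 70.9 ± 5.98 and 51.4 ± 1.47 FPKM, a log2 difference of -0.45 (SE 0.06).

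pou5f3 (ENSORLG00000010471, chromosome 12, 15527097 to 15551348), the Oct4 counterpart, was listed at 4.07 and 3.89 FPKM in medaka embryos and at 2.66, 2.88 and 2.71 FPKM in the chimeras. The groups did not overlap, and the spread within each was small, with means of 4.05 ± 0.0758 and 2.71 ± 0.0340 FPKM (log2 difference -0.44, SE 0.06). Each chimera value rested on 330 to 379 fragments. For chd (ENSORLG00000009503, chromosome 13, 18491425 to 18507807), the Bmp antagonist, the medaka libraries gave 2.95 and 2.70 FPKM and the chimeras 1.91, 1.94 and 1.85 FPKM. Here too every chimera was lower, and the means were 2.87 ± 0.134 and 1.87 ± 0.0412 FPKM (log2 difference -0.43, SE 0.07). The oocyte gene zar1 (ENSORLG00000000251, chromosome 4, 692329 to 693606) went lowest relative to medaka embryos, with 3.91 and 4.54 FPKM there and 2.14, 2.69 and 2.44 FPKM in the chimeras. Its means were 4.30 ± 0.510 and 2.39 ± 0.207 FPKM (log2 difference -0.64, SE 0.09), on 128 to 158 fragments per library. vox and chd, which act on opposite sides of the gastrula, both stood lower in the host.

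**Figure D1:**
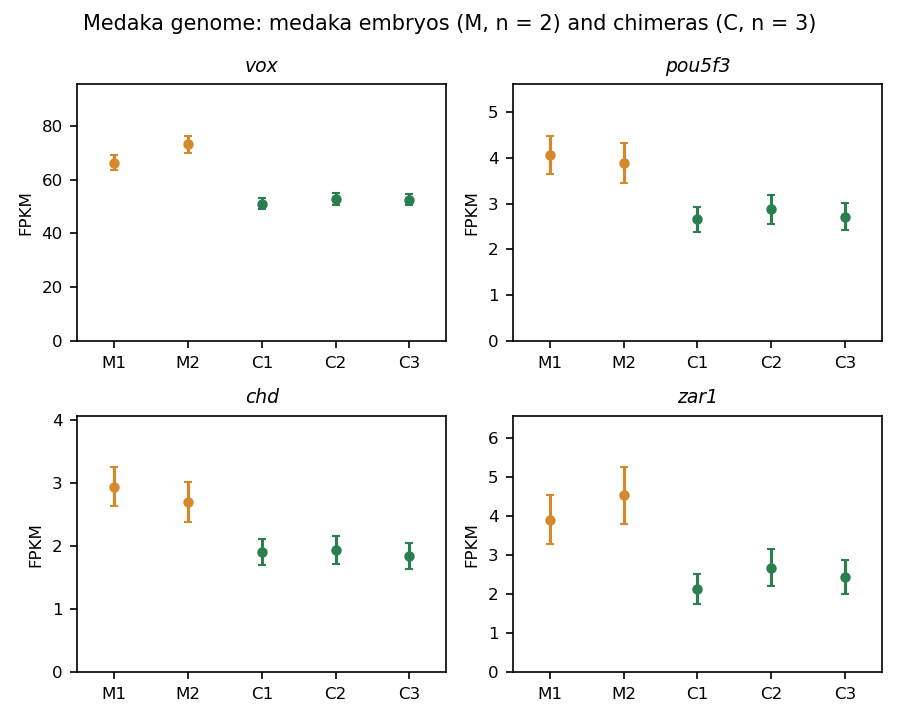
Deposited FPKM of vox, pou5f3, chd and zar1 on the medaka genome in the medaka libraries (M1, M2) and the chimeras (C1 to C3), with bars for the deposited confidence limits. All axes start at 0, and for each gene the 3 chimeras lie below both medaka libraries, at 51.0 to 52.8 FPKM against 66.2 and 73.2 for vox.

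All 4 host genes were among those lower in the chimeras at an adjusted p under 0.05 by limma with Benjamini-Hochberg adjustment. Over all 13721 medaka genes tested, 5.75% were called, 3.13% lower, and the median log2 difference was -0.0007. Every chimera lay below both medaka libraries in 22.4% of those genes and above both in 21.9%. As the genes were chosen with these values known, their count is given as a description only. With all libraries in the fit, 12.2% of all genes tested were lower at an unadjusted p under 0.05 by limma. That share was not taken with a library left out. Their log2 differences were negative under every alternative setting, from -0.54 to -0.37 for vox and from -0.82 to -0.33 for zar1. The call depends on single libraries: without chimera replicate 3, 0 of 4 passed by limma. The genes lower over the whole table then numbered 96 in place of 429. All 4 calls were also lost without either medaka replicate, which left 1 medaka library.

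Set in the order of their levels, vox stood far above the others in medaka embryos, above 93.6% of the genes detected there. zar1 at 4.30 ± 0.510 and pou5f3 at 4.05 ± 0.0758 FPKM did not differ beyond their spread, and chd at 2.87 ± 0.134 FPKM came below both. In the chimeras pou5f3 at 2.71 ± 0.0340 FPKM came next after vox, followed by zar1 at 2.39 ± 0.207 FPKM and then chd at 1.87 ± 0.0412 FPKM last. These 3 genes stood above only 36.5% to 42.3% of the genes detected in medaka embryos. The genes with the most similar profile over the 5 libraries, by Euclidean distance of log2(FPKM + 1), were pgm1 (0.21) and sox21 (0.27) for vox, tspan9a (0.17) and si:dkey-6n6.2 (0.19) for pou5f3, ugt5f1 (0.14) and dnajb5 (0.15) for chd, and rassf6 (0.26) and pdgfaa (0.30) for zar1.

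Of the 9 records in the transplanted zebrafish cells, pou5f3, nanog, zar1 and vent were listed at 0 in every chimera. In FPKM the lin28a records, chd and ved overlapped whole zebrafish embryos, and vox lay below both embryo libraries. Few fragments stood behind these values: over the 3 chimeras 40.7 and 15.7 for lin28a on chromosomes 16 and 19, 11.7 for chd, 4 for vox and 3.82 for ved. Of the 9, 5 passed the filter of a mean of 1 FPKM in either group, chd only through the chimeras, and pou5f3, nanog, zar1 and vent did not. By limma with Benjamini-Hochberg adjustment 0 of the 5 were called, where 43.0% of 16556 zebrafish genes were called, 32.5% lower and 10.5% higher. At an unadjusted p under 0.05 by limma, 1 of the 5, vox, was lower, beside 36.6% of all tested genes. Every chimera lay below both zebrafish libraries in 43.5% of all tested genes and above both in 22.0%. vox was called lower with a pseudocount of 5, under voom weights, with all 3 groups in the fit, with only genes over the floor of 3 fragments per chimera, and without chimera replicate 3, and chd was called higher under quantile normalization. A given FPKM rested on 43.5-fold more fragments in a zebrafish library than in a chimera, as a median over genes. In 101 genes whose implied fragments were whole in all 5 libraries, within 0.05, this ratio had a median of 43.6 and quartiles of 43.3 and 43.7, while the summed totals differ by 23.2-fold to 37.4-fold. At this depth a missing call does not show that levels were alike. The median log2 difference over all tested genes was -0.23, and quantile normalization moved it to 0.30.

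The gene lin28a has a record on chromosome 19 (ENSDARG00000016999, 15536660 to 15564825, danRer10, as for all zebrafish positions) and another on chromosome 16 (ENSDARG00000004328, 4825047 to 4856956). Reads of such copies could be split between them, so each value is uncertain by itself. The chromosome 19 record was listed at 11.8 and 14.9 FPKM in zebrafish embryos and at 8.86, 14.7 and 11.5 FPKM in the chimeras. These ranges overlapped, with means of 13.7 ± 1.46 and 11.3 ± 2.69 FPKM (log2 difference -0.27, SE 0.22). The chromosome 16 record was listed at 8.80 and 13.8 FPKM in the embryos and at 13.8, 14.9 and 11.0 FPKM in the chimeras, again with overlapping groups (11.5 ± 2.98 and 12.8 ± 1.81 FPKM; log2 difference 0.16, SE 0.21). Its small difference changed sign without zebrafish replicate 1 (-0.09). The records did not differ from each other beyond their spread in either group, and both were more abundant than any other of these genes on the zebrafish genome. By implied fragments the chromosome 16 record reached 40.7 of 35.3 at the embryo level over the 3 chimeras. The chromosome 19 record reached 15.7 of 40.6, or 38.7% (exact Poisson 95% interval 22.5% to 64.0%), although its mean FPKM was 83.0% of the embryo mean, and implied fragments can be too low for genes with several isoforms. The limits of the chromosome 19 record ran from 0.294 to 22.7 FPKM in chimera replicate 3.

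chd (ENSDARG00000006110, chromosome 15, 46557484 to 46594812), the Bmp antagonist, was listed at 0.865 and 0.743 FPKM in zebrafish embryos and at 0.823, 1.69 and 0.631 FPKM in the chimeras. The groups overlapped, and the mean of the chimeras (1.02 ± 0.532 FPKM) was within its own spread of that of the embryos (0.828 ± 0.135 FPKM). Over the 3 chimeras 11.7 fragments were implied, where 11.6 would have been present at the level of the embryos. The exact Poisson 95% interval, for counting error only, ran from 53.6% to 181% of that number. In the host, chd stood at 65.3% of the medaka level, and whether donor and host differ in this was not tested.

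**Figure D2:**
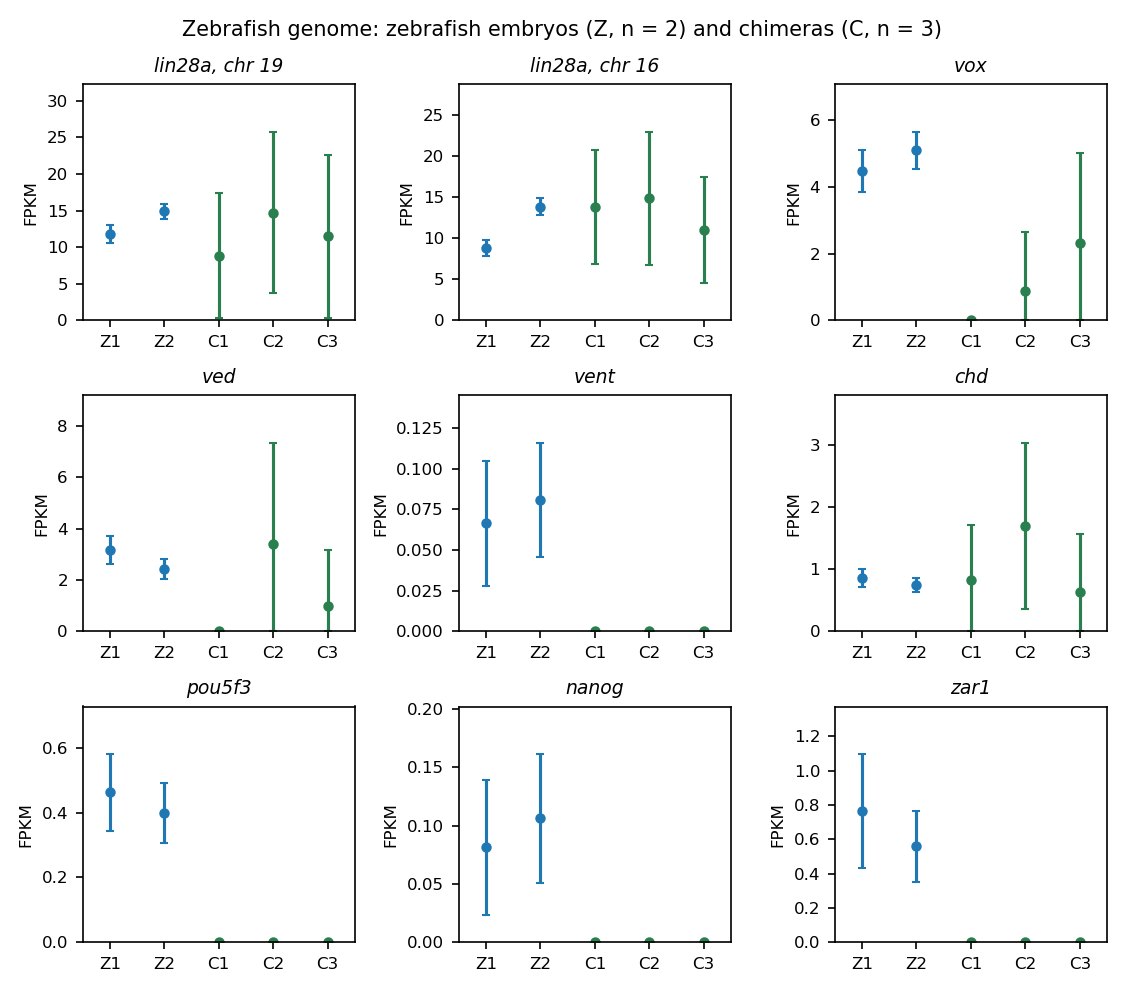
Deposited FPKM of the 9 zebrafish records in the zebrafish libraries (Z1, Z2) and the chimeras (C1 to C3), with bars for the deposited confidence limits and axes from 0. The lin28a records and chd overlap between groups, and pou5f3, nanog, zar1 and vent are at 0 in all 3 chimeras.

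The ventral repressor gene vox (ENSDARG00000099761, chromosome 13, 50307003 to 50309275) was listed at 4.47 and 5.09 FPKM in zebrafish embryos and at 0, 0.884 and 2.33 FPKM in the chimeras. Every chimera lay below both embryo libraries, although the upper limit in chimera replicate 3 reached 5.01 FPKM. The means were 4.89 ± 0.171 and 1.04 ± 1.15 FPKM (log2 difference -1.69, SE 0.52). The chimera values stood for 0, 1 and 3 fragments, 4 in all, where 18.4 would have been present at the level of the embryos. This is 21.8% of that number, with an exact Poisson 95% interval of 5.93% to 55.7% for counting error only. Its relative ved (ENSDARG00000102389, chromosome 10, 45150450 to 45155584) was listed at 3.18 and 2.44 FPKM in the embryos and at 0, 3.40 and 0.994 FPKM in the chimeras. The chimeras thus straddled the embryos, with means of 2.90 ± 0.699 and 1.41 ± 1.67 FPKM (log2 difference -0.93, SE 0.64), and 3.82 fragments were implied where 10.4 would have been present. Under quantile normalization the difference of ved was 0.036. ved lies within the span of polm, a DNA polymerase gene listed at means of 0.401 and 0.161 FPKM, and the sources used here do not say whether counting used strand.

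The remaining repressor gene, vent (ENSDARG00000100483, chromosome 13, 50293013 to 50299989), ends 7013 bases before vox starts, yet it was listed at only 0.0663 and 0.0807 FPKM in zebrafish embryos, on 11.9 and 21.0 fragments. Its mean of 0.0752 ± 0.00615 FPKM was below those of vox and ved in the same embryos, and the order vox, ved, vent was the same in both embryo libraries. In every chimera it was at 0. At the level of the embryos 1.12 fragments would have been present over the 3 chimeras, and 0 fragments allow up to 3, or 0.198 FPKM, so no change was detectable at this depth.

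pou5f3 (ENSDARG00000044774, chromosome 21, 13589124 to 13593983) was weak in zebrafish embryos, at 0.462 and 0.399 FPKM, and listed at 0 in each chimera. The embryo values rested on 59.9 and 76.2 fragments, and 4.76 fragments would have been present in the 3 chimeras at that level. A limit of 3 fragments over the group, or 0.271 FPKM, lies 1.59-fold below the embryo level, for counting error only. The 4.76 fragments are themselves an estimate, and a fall of pou5f3 was not tested. The two-sided exact Poisson 95% interval of 0 fragments is wider and reached 77.4% of the embryo level. nanog (ENSDARG00000075113, chromosome 24, 12689785 to 12694862) was listed at 0.0815 and 0.106 FPKM in the embryos, on 8 and 14.7 fragments, and at 0 in each chimera, where 0.767 fragments would have been present. zar1 (ENSDARG00000019706, chromosome 20, 23524714 to 23527239) was listed at 0.765 and 0.559 FPKM in the embryos and at 0 in each chimera, where 1.81 fragments would have been present. For both genes the limit of 3 fragments over the group (0.367 FPKM for nanog and 1.1 FPKM for zar1) lies above the embryo level, so their absence from the donor cells cannot be read from these zeros.

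**Figure D3:**
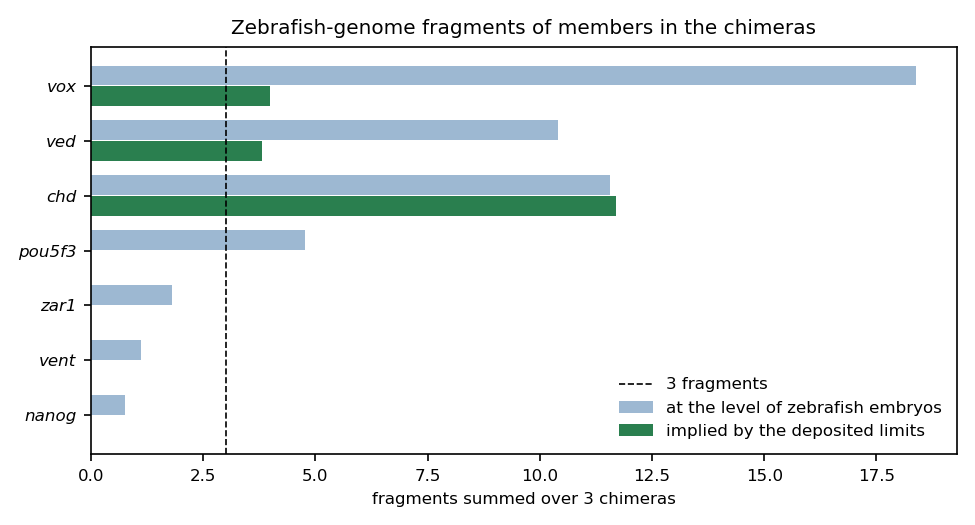
Zebrafish-genome fragments summed over the 3 chimeras for 7 records, as implied by the deposited confidence limits (green) and as they would be at the level of zebrafish embryos (pale blue), with a dashed line at 3 fragments. vox reached 4 of 18.4 and chd 11.7 of 11.6, and zar1, vent and nanog would not reach the line at the embryo level.

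In zebrafish embryos the order of levels was lin28a (chromosome 19, then 16), vox, ved, chd, zar1, pou5f3, nanog and vent. The lin28a records overlapped, as did chd and zar1 (0.828 ± 0.135 and 0.684 ± 0.188 FPKM), and nanog at 0.0959 ± 0.0125 FPKM stood above vent at 0.0752 ± 0.00615 FPKM by more than either SD, though their deposited limits overlapped. Of the 4 genes with a record in both genomes, vox was the most abundant in each, while chd was the least abundant in medaka and came next after vox in zebrafish embryos. Since each table was normalized apart, their levels are only set side by side: 70.9 FPKM in medaka and 4.89 FPKM in zebrafish embryos for vox, 4.05 and 0.443 FPKM for pou5f3, 4.30 and 0.684 FPKM for zar1, and 2.87 and 0.828 FPKM for chd. Within its own table vox was above 93.6% of detected genes in medaka and above 62.4% in zebrafish embryos, and pou5f3 above 41.3% and 27.5%. The stage of the embryos of each species is not given, and its part in these levels was not tested. Over the 5 zebrafish and chimera libraries the closest profiles were those of wnt4a (distance 0.58) and ano10b (0.68) to vox, of hbegfb (0.39) and mal (0.54) to ved, of cers6 (0.24) and znf985 (0.30) to chd, of hic1l (0.26) and mat2b (0.28) to lin28a on chromosome 19, and of si:ch1073-205c8.5 (0.23) and ash1l (0.24) to lin28a on chromosome 16.

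Partners and targets of these genes were read as 4 lists, beside the share of all tested genes called. Of 16 tested genes of the LIN28 axis in the donor cells, 2 rose (background 10.5%) and 4 fell (32.5%), with a median of -0.09. myca, a Myc proto-oncogene, rose from 18.9 ± 0.810 to 52.6 ± 4.09 FPKM (2.78-fold, limma adjusted p = 3.98e-04), and mycn rose 1.35-fold (adjusted p = 0.030). trim71, a stem cell ubiquitin ligase, fell from 23.4 ± 1.36 to 12.6 ± 1.04 FPKM (adjusted p = 0.0042), and mycb fell from 17.5 ± 2.63 to 7.59 ± 0.739 FPKM (adjusted p = 0.0040). To complete the count, chosen after their values were seen, hmga2 and igf2bp3 also fell, from 51.0 ± 10.1 to 32.2 ± 3.52 FPKM and from 29.4 ± 0.518 to 23.4 ± 1.08 FPKM (adjusted p = 0.035 and 0.044). The targets of let-7 were not read as a class. lin28b, the paralogue of lin28a, stood at 11.0 ± 5.62 FPKM in the embryos and 25.3 ± 9.56 FPKM in the chimeras, without a call (adjusted p = 0.087). Only 2 genes of this list fell without either zebrafish library or any chimera, under voom weights or without rescaling, 1 rose without either zebrafish library or chimera replicate 1 or 3, and quantile normalization gave 4 risen and 2 fallen genes. In the host 0 of 10 tested members passed by limma, and the median was -0.05. At an unadjusted p under 0.05, 1 was higher and 1 lower, where 12.2% of all genes were lower. With all 3 groups in the fit 1 rose and 1 fell, and under voom weights 1 rose.

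Among the pluripotency and genome activation partners, 6 of 29 tested zebrafish genes rose and 11 fell, with a median of 0.02, beside 10.5% higher and 32.5% lower of all genes. Of the 11, 8 passed the filter on low values only through the embryos, where they are high, so their direction was set by the filter. klf2b, klf17, klf5l and klf5a are among these 8. The Krüppel-like factors fell: klf2b (9.34 ± 0.267 FPKM in zebrafish embryos), klf17 (7.93 ± 0.459), klf5l (6.04 ± 0.0956) and klf5a (2.77 ± 0.283) were listed at 0 in all chimeras, although 53.7 to 77.5 fragments would have been present at those levels (adjusted p = 8.7e-05 to 1.2e-04). Of the SoxB1 family, which acts beside Pou5f3 and Nanog, 3 genes are named after their values were seen: sox2 rose from 50.9 ± 3.75 to 89.9 ± 11.3 FPKM, sox19b stood at 23.1 ± 2.03 and 21.7 ± 2.62 FPKM, and sox19a at 119 ± 10.8 and 101 ± 4.87 FPKM, neither with a call. sox3, also on the list, was not tested. The counts were 1 and 6 without zebrafish replicate 1, 7 fallen without replicate 2, 7 fallen at a minimum mean FPKM of 5, and 11 and 6 under quantile normalization. In the host 2 of 26 rose (background 2.62%) and 5 fell (3.13%). At an unadjusted p under 0.05 by limma, 3 were higher and 10 lower, where 12.2% of all genes were lower. foxh1, a Nodal-pathway factor of the egg and blastula that passed the filter only through the medaka embryos, fell from 1.08 ± 0.0179 to 0.283 ± 0.0655 FPKM (adjusted p = 0.014), sall4 fell from 28.8 ± 0.713 to 22.6 ± 0.271 FPKM (adjusted p = 0.014), eomesa rose from 1.04 ± 0.0487 to 2.31 ± 0.0114 FPKM (adjusted p = 0.0056) and pou3f1 rose from 14.0 ± 1.36 to 22.4 ± 0.906 FPKM (adjusted p = 0.0087). The fallen genes numbered 0 without chimera replicate 3, 2 without rescaling and 8 with all 3 groups in the fit. They numbered 3 under quantile normalization, without chimera replicate 1, without a filter on low values or at a minimum mean FPKM of 5. The risen genes numbered 1 at that minimum. Fewer genes also fell without either medaka replicate, and fewer rose without medaka replicate 1, fits that left 1 medaka library.

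The dorsoventral patterning genes act with vox, vent, ved and chd. In the donor cells 15 of 31 tested fell and 0 rose by limma, beside 32.5% lower and 10.5% higher of all genes. Their median was -0.82. At an unadjusted p under 0.05, 20 were lower and 0 higher, where 36.6% of all genes were lower. Of the 15, 9 passed the filter only through the embryos, so their direction was set by the filter. tp63, dlx3b, tbxta and gsc, named next, are among these 9. tp63, an epidermal regulator, fell from 25.4 ± 1.92 to 0.229 ± 0.242 FPKM and dlx3b, a gene of the neural plate border, from 22.8 ± 1.48 to 0.303 ± 0.264 FPKM (adjusted p = 1.1e-04 and 1.5e-04). tbxta, the notochord and tail bud T-box gene, and gsc, the organizer homeobox gene that Vox, Vent and Ved repress, were at 9.66 ± 0.214 and 2.52 ± 0.163 FPKM in the embryos and listed at 0 in all chimeras (adjusted p = 8.5e-05 and 1.1e-04), where 43.3 and 11.7 fragments would have been present. The number risen was 1 under quantile normalization and without chimera replicate 2. In the host 7 of 27 fell and 1 rose, with a median of -0.10, beside 3.13% lower and 2.62% higher of all genes. The Bmp antagonist nog1 fell from 11.6 ± 0.530 to 7.58 ± 0.539 FPKM (adjusted p = 0.013), the activin antagonist fsta from 13.7 ± 0.772 to 10.3 ± 0.366 FPKM (adjusted p = 0.021), the organizer Bmp gene admp from 2.78 ± 0.00139 to 1.76 ± 0.147 FPKM (adjusted p = 0.026) and the mesodermal T-box gene tbx16 from 16.1 ± 1.53 to 12.1 ± 0.282 FPKM (adjusted p = 0.029). Without chimera replicate 3, 0 fell by limma, 4 fell without chimera replicate 1 and at a minimum mean FPKM of 5, and 3 without rescaling. The calls of all fallen genes were also lost without either medaka replicate, which left 1 medaka library. The riser, dlx5a, was lost without either medaka library or chimera replicate 1 or 3.

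Of the oocyte and germ cell genes, the company of zar1, 12 of 52 zebrafish records were expressed enough to be tested; 4 rose and 5 fell, with a median of -0.54, beside 10.5% higher and 32.5% lower of all genes. nanos3, a germ cell gene, stood at 1.96 ± 0.101 FPKM and zp3.2, an egg coat gene, at 1.43 ± 0.113 FPKM in zebrafish embryos, and both were listed at 0 in all chimeras, as were foxl2a (1.97 ± 0.200) and dmrt1 (1.26 ± 0.0603), with adjusted p = 1.2e-04 to 1.6e-04 and 4.37 to 8.75 fragments at the embryo level over the 3 chimeras. These 4 of the 5 fallen genes passed the filter only through the embryos, so their direction was set by the filter. With only genes over the floor of 3 fragments per chimera, 2 of 7 fell and 4 rose, and the median turned to 0.72. The 4 risen genes, named after their values were seen, were sycp3 (which passed the filter only through the chimeras), ccnb1, rbpms2a and rbpms2b, of which rbpms2b, also a gene of retinal ganglion cells, went from 11.8 ± 0.292 to 124 ± 28.2 FPKM (adjusted p = 2.1e-04). 2 rose without zebrafish replicate 2, 2 fell under quantile normalization or at a minimum mean FPKM of 5, and 24 fell without a filter on low values. In the host 9 genes were tested, with a median of -0.16. At an unadjusted p under 0.05 by limma, 3 were lower and 0 higher, where 12.2% of all genes were lower. After adjustment 1 fell (background 3.13%) and 0 rose (2.62%). This gene was dmrt1, a gonadal regulator that passed the filter only through the medaka embryos, at 1.23 ± 0.190 and 0.266 ± 0.0320 FPKM (adjusted p = 0.011), whose call was lost without either medaka library, under quantile normalization and at a minimum mean FPKM of 5. With all 3 groups in the fit 2 fell.

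**Figure D4:**
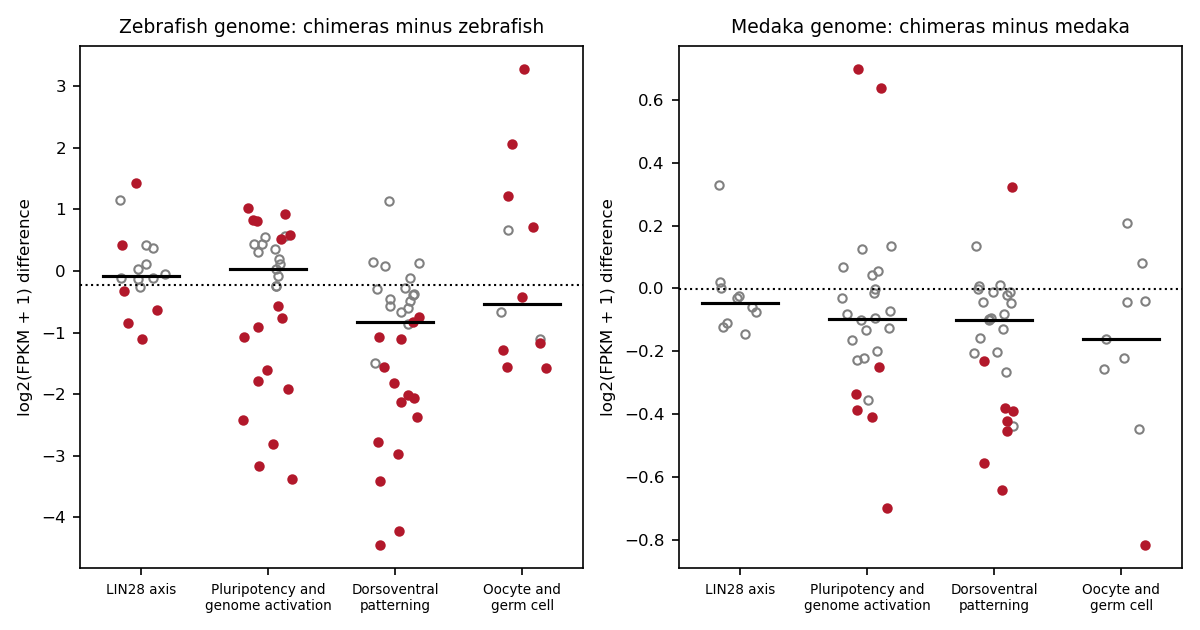
Difference in log2(FPKM + 1), chimeras minus zebrafish embryos (left) and chimeras minus medaka embryos (right), for each tested gene of the 4 lists, filled where the limma adjusted p is under 0.05, with a bar at the median of each list and a dotted line at the median of all tested genes. The donor dorsoventral list has the lowest median of the 4 (-0.82 against -0.23 for all tested genes). Of its 15 lower genes 9 passed the filter on low values only through the embryos, so their direction was set by the filter. The host medians lie between -0.16 and -0.05.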

How the data were processed

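Poly(A)-selected RNA of 7 whole-embryo libraries was sequenced. Per the submitters' processing notes, the authors used HISAT2 and Cufflinks 2.2.1 with danRer10. The sources used here give neither the HISAT2 version nor the medaka build. The deposited FPKM values and their confidence limits came from 14 tables. IDs at several loci (119 in zebrafish, 2 in medaka) were summed. Positions are as in the files, with starts counted from 1.

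The fragments behind a value were estimated from its upper limit, as (2 × FPKM / (upper limit − FPKM)) squared, which is too low for genes with several isoforms; summed totals are estimates made this way. Numbers of fragments at the level of the embryos combine a gene's fragments per FPKM in its control libraries with the median depth ratio. Intervals and limits of 3 fragments hold counting error only.

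After rescaling by the median ratio, log2(FPKM + 1) was tested with limma 3.58.1 in R 4.3.3 (trend and robust options) between chimeras and zebrafish or medaka embryos. A gene was tested if either group averaged 1 FPKM or more, if libraries of the other species averaged below 1 FPKM, and if its status was valid (54 zebrafish and 4 medaka IDs had none). P-values were adjusted by the Benjamini-Hochberg method over all tested genes, with a threshold of 0.05. An exact permutation test of 2 against 3 libraries cannot go below a two-sided p of 0.1, so none is reported. The fits were also run on simulated data drawn around the embryo means with few genes changed, unlike the donor comparison. Nothing is concluded from those runs. Python 3.11.15, pandas 2.3.3, scipy 1.17.1 and matplotlib 3.10.9 served for tables and figures.

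The members, the 4 gene lists, the 3 marker lists and the tests were chosen with earlier results of these data known. Named by rule were all members, up to 4 called genes with the smallest p per list and genome, and the 2 closest profiles per member with a mean FPKM of at least 1. Restricting the test to genes over the floor was added after seeing the data.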

Additional observations from a re-analysis of the deposited data

How the results depend on the processing

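No paired analysis was possible because the replicate numbers follow accession order and only name the libraries. In that order chimera replicates 2 and 3 stand apart from all other libraries. Whether they were prepared as a separate batch is not stated and was not tested. None of the 4 called host members changed direction under any alternative run. For single genes of the lists the direction was not compared between runs. Of the uncalled members, ved (under quantile normalization) and lin28a on chromosome 16 (-0.09 without zebrafish replicate 1) changed sign. The cause of the shifts was not tested, apart from those that the pseudocount sets by construction. In the donor cells 1737 genes were higher and 5382 lower. Lower genes numbered 9482 with no filter on low values and 2965 at a minimum mean FPKM of 5, and quantile normalization gave 5387 higher and 3307 lower. Leaving out 1 library gave 619 to 1869 higher and 3308 to 5525 lower, with 619 and 3355 without zebrafish replicate 1 and 757 and 3308 without replicate 2. In the 4 lists together, 12 higher and 35 lower donor genes became 62 lower with no filter on low values, 22 lower at the minimum of 5, 20 higher and 22 lower under quantile normalization, and 5 to 14 higher and 23 to 35 lower with 1 library left out. Donor members called lower, 0 as reported, were 1 (vox) with a pseudocount of 5, under voom weights and with all 3 groups in the fit. The same held with only genes over the floor and without chimera replicate 3. With no filter on low values 4 were called lower (pou5f3, nanog, zar1 and vent, all at 0 in the chimeras), beside 9482 of 25912 tested genes. At the embryo level nanog, vent and zar1 would have given only 0.767, 1.12 and 1.81 fragments over the 3 chimeras, so their calls show no fall. Under quantile normalization 1 (chd) was higher. The log2 difference of donor vox was -3.04 with a pseudocount of 0.1, -0.73 with 5 and -0.93 under quantile normalization, and that of ved was -2.06 with a pseudocount of 0.1 and 0.036 under quantile normalization. Quantile normalization, which moved the median of all genes from -0.23 to 0.30, gave 0.44 for lin28a on chromosome 16 and 1.03 for chd.

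In the host 360 genes were higher and 429 lower. Lower genes numbered 247 with no rescaling, voom weights gave 543 higher and 673 lower, and all 3 groups in the fit gave 978 and 992. Leaving out 1 library gave 44 to 483 higher and 79 to 544 lower, with 200 higher without chimera replicate 1 and 72 and 96 without chimera replicate 3. In the lists 3 higher and 13 lower host genes became 7 lower at the minimum of 5, 6 lower with no rescaling, 5 higher and 20 lower with all 3 groups in the fit, and 1 to 3 higher and 0 to 13 lower with 1 library left out. Host members called lower, 4 as reported, were 1 (vox, the only member tested) at the minimum of 5 and 0 to 4 with 1 library left out. With pseudocounts of 0.1 and 5 the log2 differences were -0.82 and -0.33 for zar1, -0.59 and -0.20 for chd, and -0.56 and -0.23 for pou5f3. pou5f3 stood at -0.41 with no rescaling and -0.40 under quantile normalization, and chd at -0.39 under the latter. With 1 library left out vox ranged from -0.54 to -0.37 and chd from -0.46 to -0.39. At this depth zar1, vent and nanog would have given under 3 fragments in the 3 chimeras at the embryo level.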
